A study of Saccharomyces cerevisiae with 13 samples.

Results

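The RNA decay and exosome genes of Saccharomyces cerevisiae examined here are a list of 34 genes, drawn up by name and not by any measured value. They encode decapping factors and 5′ exonucleases, deadenylases, nonsense-mediated decay factors, the SKI complex and the RNA exosome. Of these, 32 had a transcript model among the 4280 models in the deposited tables, and SKI7 and the exosome ring gene RRP42 had none and were not analysed here. The strain was BY4742, a haploid laboratory strain, and it was the same in every group. The 4 groups were NRO (HS), the nascent RNA of cells moved to 39° for 20 min; NRO, the nascent RNA of cells in log-phase growth at 30° in rich glucose medium; total RNA (HS), from the heat-shocked cells; and total RNA, from the log-phase cells. In the nuclear run-on (NRO) assay, stalled polymerases are restarted with biotin-UTP and the labelled RNA is captured on streptavidin, so that the read density of a gene reports its transcriptional activity. Per the methods, total RNA was an aliquot taken before that capture.

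Messenger RNA decay in yeast starts with removal of the poly(A) tail by the CCR4-NOT and PAN2-PAN3 complexes. The body of the transcript is then degraded either from the 5′ end, after decapping by Dcp1-Dcp2, by the exonuclease Xrn1, or from the 3′ end by the cytoplasmic exosome with the SKI complex. In the nucleus the exosome, with the nuclease Rrp6 and the helicase Mtr4, trims ribosomal and small RNA precursors and removes unstable transcripts. Nonsense-mediated decay recognises messages with premature stop codons and sends them to decapping.

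Read density was the summed depth of a transcript model beyond the first 200 bp after its start site, divided by its mappable bases outside introns and scaled to 1e+06 bases acquired. It is a value per base, so levels of genes may be set side by side, with a limit. The paper states that capture came before fragmentation, so that nascent transcripts are nested and fewer reach the 3′ end. NRO density may therefore fall with the length of the region, which ran from 546 to 6281 bases among the members. Neither this nor sequencing bias was corrected, and the intervals of ratios between genes leave both out. The paper names 3 independent cultures for the log-phase libraries and 6 for the heat shock libraries. Whether NRO (HS) and total RNA (HS) came from the same cultures is not known here. The authors merged 3 replicate libraries in each group, so each gene had 1 value per group and no spread between replicates. The error given is therefore the exact 95% binomial interval for counting error only, on reads estimated from the depth, and it leaves out variation between cultures and PCR duplicates. The pools held an estimated 378273 reads for NRO (HS), 2491144 for NRO, 656630 for total RNA (HS) and 894262 for total RNA. The median member had 14, 209, 18 and 40.5 reads in those pools, so NRO (HS) was the least precise. Of the 32 members, 7 were listed at 0 in NRO (HS), 3 in NRO, 4 in total RNA (HS) and 1 in total RNA. All 4 pools are shares of the bases acquired in bulk samples, so that fewer cells making a transcript cannot be told apart from less of it per cell. A share also falls where other transcripts rise, so every change after heat shock given below is relative and not an absolute amount. The heat shock labels matched 6 heat shock genes fixed for that purpose, whose densities were each higher in both heat shock pools, as for the chaperone gene SSA4 with 0.901 in NRO (HS), against 0.0296 in NRO, and 1.71 in total RNA (HS), against 0.0373 in total RNA.

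The upstream sequences of the members were searched first, because genes for ribosomal RNA processing in yeast, which include those of the exosome, are known to carry the PAC and RRPE elements. The search covered 250 bases before to 50 bases after the coding start in the R64 reference assembly (RefSeq), on both strands, for the PAC core GATGAG, the RRPE AAAAATTT and the stress response element AGGGG. It also covered the heat shock element, taken as 3 alternating GAA and TTC units with 2 bases between neighbours. The PAC core was in 11 of 32 members (34.4%), against 20.2% of 4258 promoters, and in 7 of the 11 exosome genes measured. The RRPE was in 14 of 32 members (43.8%), against 15.7% of promoters, and again in 7 of the 11 exosome genes. Both were in 7 members (21.9%), against 6.32% of promoters, namely CCR4, SKI2, DIS3, MTR3, RRP40, CSL4 and MTR4. The stress response element was in 6 members (18.8%), against 21.5% of promoters, and the heat shock element in 0 members, against 0.845% of promoters. These matches are descriptions of letters and were not tested as sites. The windows below show the PAC core and RRPE of 2 exosome genes whose activity after heat shock is compared further on, and of the helicase gene MTR4, followed by the stress response element of CDC39 and LSM1. Each is written 5′ to 3′ on the strand of its gene, with the matched letters in capitals (a match on the opposite strand appears as its reverse complement).
DIS3 PAC core (chrXV:285530-285559, minus strand): taggcattttctCTCATCtcagaaaaattt
DIS3 RRPE (chrXV:285519-285548, minus strand): tctcatctcagAAAAATTTtaatgtgtgtg
CSL4 PAC core (chrXIV:214810-214839, plus strand): gaattcactgatGATGAGcttatggtacgg
CSL4 RRPE (chrXIV:214753-214782, plus strand): tcacgtgaagtAAAAATTTccaaaaaatat
MTR4 PAC core (chrX:342371-342400, plus strand): tcactttcttgcGATGAGatgcacatagta
MTR4 RRPE (chrX:342335-342364, plus strand): tttatttcattAAATTTTTttttttttttt
CDC39 stress response element (chrIII:280026-280055, plus strand): aataagataaacAGGGGcaaaggtgagtcg
LSM1 stress response element (chrX:187812-187841, minus strand): gtatttcaatctAGGGGaagcctgtatgac
The DIS3 PAC core and RRPE lie next to each other.

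The members ranged in level from genes listed at 0 to genes among the most active of the genome. Their median density was 0.0177 in NRO (HS), 0.0385 in NRO, 0.0152 in total RNA (HS) and 0.0315 in total RNA, against 0.0159, 0.0214, 0.0131 and 0.0192 over all models. The median member stood at the 51.5th percentile of all models in NRO (HS), the 61.1st in NRO, the 52.2nd in total RNA (HS) and the 58.9th in total RNA. PAT1, a scaffold that activates decapping, and CCR4, the main catalytic deadenylase, had the highest densities of the list. At the other end UPF3, the third core factor of nonsense-mediated decay, was listed at 0 in all 4 pools, as were 317 of the 4280 models (7.4%). DCP1, the essential partner of the decapping enzyme, had 0.6 estimated reads in total RNA and 0 in the other pools. Genes listed at 0 had no detectable reads at this depth in this region. The region is 589 bases long for DCP1 and 1102 for UPF3, while RRP46, with the shortest region of the list (546 bases), had 56 reads in NRO. Why these genes had so few reads was not tested.

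**Figure D1:**
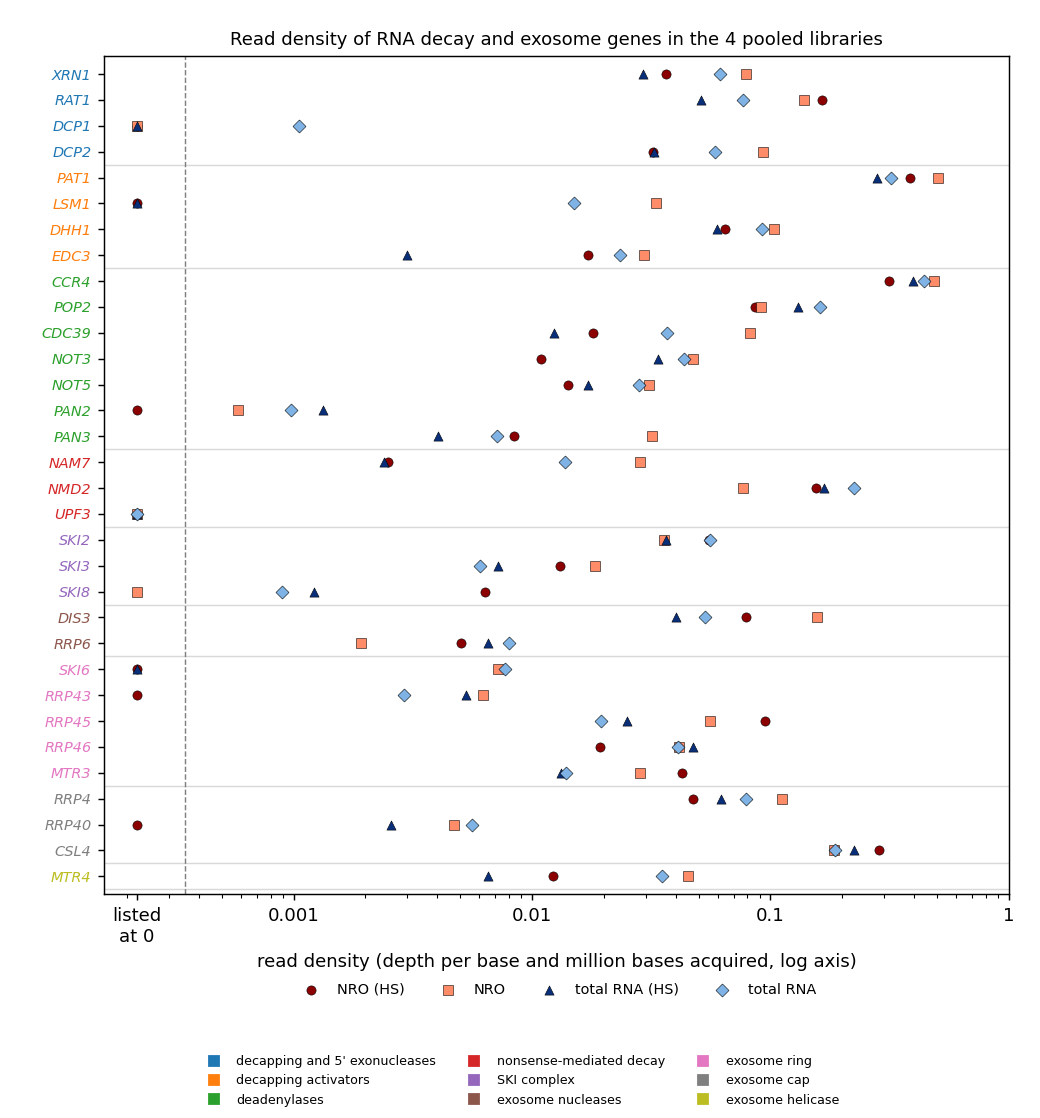
Read density of the 32 members in the NRO (HS), NRO, total RNA (HS) and total RNA pools, on a log axis in depth per base and 1e+06 bases acquired, with genes grouped by role and each symbol 1 pooled library. PAT1 and CCR4 lie above 0.28 in every pool, and 8 genes have at least 1 symbol at the left edge, where the density is listed at 0.

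Among the decapping and 5′ exonuclease genes, XRN1 (YGL173C, chromosome VII, 175409 to 180252, minus strand, sacCer2), the cytoplasmic 5′ exonuclease, had a read density of 0.0366 in NRO (HS), 0.0793 in NRO, 0.0292 in total RNA (HS) and 0.0612 in total RNA. Both the nascent and the total RNA of XRN1 were thus lower after heat shock. RAT1 (YOR048C, chromosome XV, 418561 to 421481), its nuclear counterpart, which also acts in transcription termination, had 0.165 in NRO (HS), 0.138 in NRO, 0.0511 in total RNA (HS) and 0.0766 in total RNA. XRN1 was below RAT1 in every pool, and most so in NRO (HS), with a ratio of 0.222 (0.165 to 0.295), against 0.575 (0.526 to 0.629) in NRO. DCP2 (YNL118C, chromosome XIV, 402550 to 405421), the decapping enzyme, had 0.0322 in NRO (HS), 0.0928 in NRO, 0.0323 in total RNA (HS) and 0.0588 in total RNA. Positions given with gene names here and below are those of the counted region, which leaves out the first 200 bp of the model.

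The decapping activators differed widely in level. PAT1 (YCR077C, chromosome III, 250098 to 252468) had 0.386 in NRO (HS), 0.506 in NRO, 0.281 in total RNA (HS) and 0.320 in total RNA. DHH1 (YDL160C, chromosome IV, 170357 to 172008), a DEAD-box helicase, had 0.0645, 0.104, 0.0595 and 0.0925 in the same pools. EDC3 (YEL015W, chromosome V, 126806 to 128340), an enhancer of decapping, had 0.0172 in NRO (HS), 0.0296 in NRO, 0.00298 in total RNA (HS) and 0.0233 in total RNA. PAT1 was between 13.7 and 94.4 times the density of EDC3, the largest ratio resting on 3 EDC3 reads in total RNA (HS). LSM1 (YJL124C, chromosome X, 186921 to 187601), a subunit of the Lsm ring that binds Pat1, was listed at 0 in both heat shock pools and had 0.0330 (56 reads) in NRO and 0.0150 (9.1 reads) in total RNA.

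Of the deadenylase genes, CCR4 (YAL021C, chromosome I, 110618 to 113200) had 0.315 in NRO (HS), 0.485 in NRO, 0.395 in total RNA (HS) and 0.439 in total RNA. POP2 (YNR052C, chromosome XIV, 719315 to 720545), the other CCR4-NOT nuclease, had 0.0859, 0.0916, 0.131 and 0.162 in those pools. CDC39 (YCR093W, chromosome III, 280261 to 286541), the scaffold of CCR4-NOT, had 0.0181 in NRO (HS), 0.0819 in NRO, 0.0124 in total RNA (HS) and 0.0367 in total RNA. Read densities of genes for one complex were therefore far from equal. CCR4 was 17.4 times CDC39 in NRO (HS) (12.6 to 24.6), against 5.93 times in NRO (5.55 to 6.33). The counted region is 2583 bases long for CCR4 and 6281 for CDC39, and the part of length in these ratios was not tested. NOT3 and NOT5 encode further CCR4-NOT subunits. NOT3 had 0.0109 in NRO (HS), 0.0471 in NRO, 0.0337 in total RNA (HS) and 0.0432 in total RNA. NOT5 had 0.0142, 0.0309, 0.0172 and 0.0280 in those pools. PAN3, the regulatory subunit of the second deadenylase, had 0.00843, 0.0318, 0.00405 and 0.00713. Its catalytic partner PAN2 was near the floor, with 0 reads in NRO (HS), 5 in NRO (0.000583), 3 in total RNA (HS) (0.00133) and 3 in total RNA (0.000974). PAN3 was 54.5 times PAN2 in NRO (22.9 to 170.5).

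In the nonsense-mediated decay group, NAM7 (YMR080C, chromosome XIII, 426323 to 429506), which encodes the helicase Upf1, had 0.00249 in NRO (HS), 0.0284 in NRO, 0.00239 in total RNA (HS) and 0.0137 in total RNA. NMD2 (YHR077C, chromosome VIII, 252323 to 255609), which encodes Upf2, had 0.156, 0.0764, 0.168 and 0.223 in those pools. NMD2 exceeded NAM7 everywhere, by 2.70 times in NRO and by 16.3 times in total RNA. Of the SKI genes, SKI2, the helicase (YLR398C, chromosome XII, 915068 to 918855), had 0.0551 in NRO (HS), 0.0359 in NRO, 0.0366 in total RNA (HS) and 0.0558 in total RNA. SKI3, the scaffold, had 0.0131, 0.0183, 0.00720 and 0.00608. SKI8, the WD-repeat subunit, had 3 reads in NRO (HS), 0 in NRO, 1 in total RNA (HS) and 1 in total RNA, and is at or under the floor of 3 reads in every pool.

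Among the exosome genes, DIS3 (YOL021C, chromosome XV, 282332 to 285256), the nuclease of the core exosome, had 0.0786 in NRO (HS), 0.156 in NRO, 0.0401 in total RNA (HS) and 0.0531 in total RNA. RRP6 (YOR001W, chromosome XV, 327018 to 329119), the nuclear nuclease, had 0.00503, 0.00191, 0.00652 and 0.00798. DIS3 was 81.7 times RRP6 in NRO (44.3 to 170.8) and 6.66 times in total RNA (3.90 to 12.2). MTR4 (YJL050W, chromosome X, 342534 to 345787), the helicase that feeds RNA to the nuclear exosome, had 0.0122 in NRO (HS), 0.0449 in NRO, 0.00655 in total RNA (HS) and 0.0351 in total RNA.

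The cap of the exosome, whose subunits bind RNA, was led by CSL4 (YNL232W, chromosome XIV, 215098 to 215868), with 0.285 in NRO (HS), 0.185 in NRO, 0.225 in total RNA (HS) and 0.187 in total RNA. RRP4 had 0.0474, 0.112, 0.0623 and 0.0792, and RRP40 had 0, 7, 1 and 3 reads in the same pools. The ring subunits form the channel through which RNA reaches Dis3. RRP45 had 0.0947 in NRO (HS), 0.0557 in NRO, 0.0249 in total RNA (HS) and 0.0195 in total RNA. MTR3 had 0.0425, 0.0283, 0.0132 and 0.0138. RRP46 was measured with 4 reads in NRO (HS), 56 in NRO, 17 in total RNA (HS) and 20 in total RNA. SKI6 (YGR195W, chromosome VII, 888983 to 889705) had none in either heat shock pool, 13 reads in NRO (0.00722) and 5 in total RNA (0.00773), and RRP43 had 0, 18, 4 and 3 reads. The 10 core exosome genes measured thus spanned 0.00191 to 0.185 in NRO and 0.00290 to 0.187 in total RNA.

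The first comparison set transcriptional activity against abundance in log growth, as the ratio of NRO to total RNA. For all 3400 genes tested the median log2 ratio was -0.01, and for the 29 members with reads in both pools it was 0.36. At 2-fold or more, 9 of 29 members were higher in NRO, against 21.8% of all genes, and 2 were lower, against 19.0% of all genes. With the further demand that the counting interval leave 1 out, 8 were higher (all genes, 18.4%) and 2 lower (all genes, 15.9%). The higher members came from most roles. PAN3 had the highest log2 ratio, 2.16 (1.31 to 3.14), on 149 NRO and 12 total RNA reads. SKI3 had 1.59 (0.96 to 2.28), DIS3 1.55 (1.30 to 1.82) and RRP45 1.52 (0.79 to 2.34). The others were CDC39 with 1.16, LSM1 with 1.14, NAM7 with 1.05 and MTR3 with 1.03, all on the log2 scale.

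The members with less nascent than total RNA in log growth were RRP6, at -2.06 on the log2 scale (-3.38 to -0.81) with 10 NRO and 15 total RNA reads, and NMD2, at -1.55 (-1.71 to -1.39) with 626 and 656 reads. NMD2 is thus the low ratio measured most precisely. POP2 at -0.82 and SKI2 at -0.64 also had intervals below 0 without reaching 2-fold. Genes that act together fell on both sides, with DIS3 high and RRP6 low among the exosome nucleases and with NAM7 high and NMD2 low in nonsense-mediated decay. CSL4, at -0.01 (-0.31 to 0.29), had near equal densities in both pools. All 4 decapping activators and the 3 tested decapping and 5′ exonuclease genes lay between 0.16 and 1.14 on the log2 scale, where 50.2% of all genes lay below 0, and the intervals of DHH1 and EDC3 included 0.

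**Figure D2:**
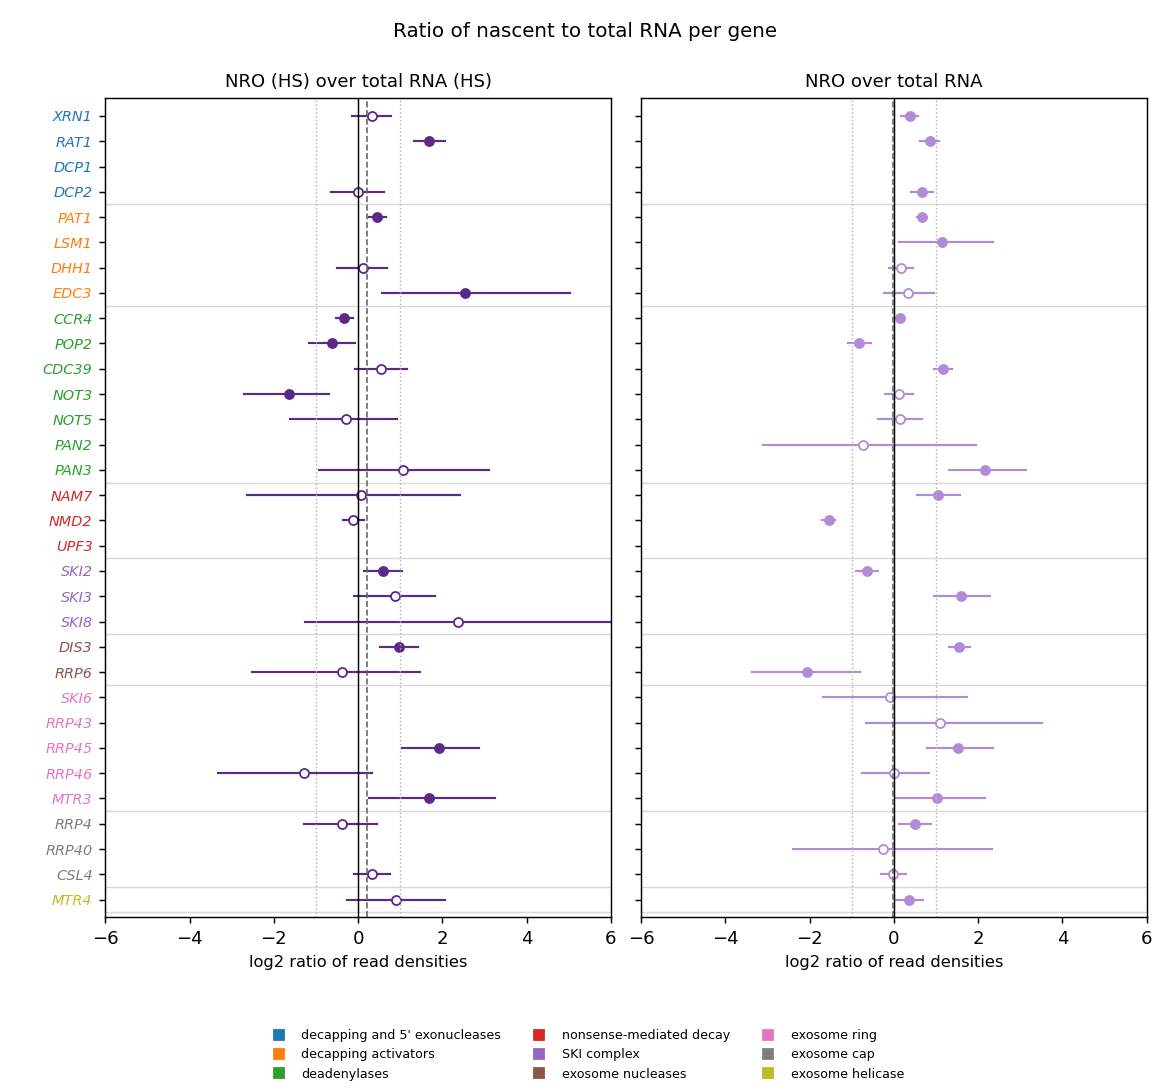
Log2 ratio of nascent to total RNA read density for each member after heat shock (left) and in log growth (right), with lines for the 95% counting interval, filled circles where it leaves 0 out, and a dashed line at the median of all genes tested (0.22 and -0.01). PAN3, SKI3, DIS3 and RRP45 stand highest in log growth, and NMD2 and RRP6 lowest.

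After heat shock the same ratio, NRO (HS) over total RNA (HS), had a median of 0.34 on the log2 scale for the 25 members with reads in both pools, and of 0.22 over 2831 genes. At 2-fold or more, 6 of 25 members were higher in NRO (HS), against 24.4% of all genes, and 2 were lower, against 12.9%. The 6 include SKI8, on 3 reads in NRO (HS) and 1 in total RNA (HS), and PAN3, on 6 and 5, whose intervals included 0. With a counting interval that left 1 out, 4 were higher (all genes, 17.7%) and 1 lower (all genes, 8.23%). The 4 were EDC3 at 2.53 (0.58 to 5.03), which had 10 and only 3 reads, RRP45 at 1.92 (1.03 to 2.88), RAT1 at 1.69 (1.33 to 2.06) and MTR3 at 1.69 (0.26 to 3.25). NOT3, at -1.63 (-2.71 to -0.69), was the lower one. NMD2 had -0.11 (-0.37 to 0.15) after heat shock, against -1.55 in log growth, and DIS3 had 0.97 (0.51 to 1.43), against 1.55.

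The second comparison asked how the activity of these genes differed after heat shock. As a share of the bases acquired, nascent RNA of the decay genes was mostly lower in the heat-shocked cells. The median log2 ratio of NRO (HS) over NRO was -0.73 for the 24 members with reads in both pools, against -0.10 for all 2894 genes tested. At 2-fold or more, 10 of 24 members were lower (41.7%), against 23.1% of all genes, and 2 were higher, against 16.2%. With the interval rule, 9 were lower (all genes, 18.9%) and 1 was higher (all genes, 13.1%). Setting the 6 further members that were at 0 in 1 of the pools to a floor of 3 reads there gave a median of -0.55 over 30 members. That floor placed PAN2, RRP40, SKI6 and RRP43 above 0, although they had no read in NRO (HS). Equal density would have given them 0.76, 1.06, 1.97 and 2.73 reads, all under the floor. Their direction is therefore not known, and the move from -0.73 to -0.55 depends on the floor. Summed over the 32 members, decay gene reads were 437.8 per 100000 reads in NRO (HS), against 614.4 in NRO. The same sum was also lower in total RNA, with 373.1 in total RNA (HS), against 498.1 in total RNA. Such sums lean on a few genes. In NRO, CCR4 and PAT1 held 3122.7 and 2990.9 of the 15306.2 member reads, and in NRO (HS) 307.6 and 346.0 of 1655.9.

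Of the 7 deadenylase genes, the 6 with a ratio ranged from -2.18 to -0.09, with a median of -1.52. All 6 were below 0, against 54.0% of all genes, and 5 had an interval wholly below 0, as had 13 of the 24 members and 29.8% of all genes. CDC39 had the lowest value of these, -2.18 (-2.65 to -1.74), with 43 reads in NRO (HS), against 1280.9 in NRO. NOT3 had -2.11 (-3.13 to -1.25) with 11 reads, against 313, and PAN3 had -1.91 (-3.38 to -0.76) with 6 reads, against 149. NOT5 was at -1.12 (-2.28 to -0.15) and CCR4 at -0.62 (-0.80 to -0.45). POP2, at -0.09 (-0.61 to 0.39), could not be told from no change at this depth. Together the 5 CCR4-NOT genes of the list took 108.6 of 100000 reads in NRO (HS), against 205.8 in NRO. Most of that sum was CCR4, with 307.6 of the 410.6 reads in NRO (HS) and 3122.7 of the 5126.6 in NRO. CCR4-NOT subunit genes outside the list did not all lie below 0, with CAF40 at 0.83 (0.16 to 1.43), CDC36 at 0.50 (-1.94 to 2.34) on 3 reads in NRO (HS), and MOT2 at -0.23 (-0.64 to 0.16).

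On the 5′ side of decay, DCP2 was at -1.53 (-2.06 to -1.04), XRN1 at -1.12 (-1.50 to -0.76) and DHH1 at -0.68 (-1.20 to -0.22). PAT1, at -0.39 (-0.56 to -0.23), was lower by less than 2-fold. LSM1 had no read in NRO (HS), where equal density would have given 8.5. Setting the 0 to a floor of 3 reads puts LSM1 2.83-fold lower. That is not a lower bound, since the exact interval of the ratio reached up to 0.448. RAT1 was above 0, at 0.26 (0.02 to 0.49) on the log2 scale.

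NAM7 had the lowest value of the list in nascent RNA, -3.51 (-5.80 to -1.94), with 3 reads in NRO (HS), against 225 in NRO. Its partner NMD2 went the other way, at 1.03 (0.79 to 1.26), with 194 reads in NRO (HS), against 626 in the larger NRO pool. NMD2 was the sole member past 2-fold upwards whose interval left 0 out. SKI2 was also higher, at 0.62 (0.25 to 0.98), and SKI3, at -0.48 (-1.21 to 0.17), could not be told from no change.

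Exosome genes did not share one direction. MTR4, at -1.88 (-2.73 to -1.14), RRP4, at -1.23 (-2.01 to -0.55), and DIS3, at -0.99 (-1.32 to -0.67), were lower in NRO (HS). RRP45, at 0.77 (0.18 to 1.31), and CSL4, at 0.62 (0.26 to 0.97), were higher. RRP6 at 1.40, RRP46 at -1.09 and MTR3 at 0.59 had intervals that included 0, and RRP6 and RRP46 each rested on 4 reads in NRO (HS). The 7 members with both a PAC core and an RRPE were likewise split. MTR4, DIS3 and CCR4 (-0.62) were lower, and CSL4 and SKI2 (0.62) were higher. The interval of MTR3 included 0, and RRP40 had no read in NRO (HS). SKI6, RRP43 and RRP40 had no reads in NRO (HS), where equal density would have given 1.97, 2.73 and 1.06, so that no difference was detectable.

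In total RNA the median change of the decay genes was close to that of all genes. The median log2 ratio of total RNA (HS) over total RNA was -0.38 for 28 members and -0.41 for 3282 genes. At 2-fold or more, 6 of 28 members were lower, against 27.7% of all genes, and 0 were higher, against 10.2%. The 28 include PAN2, SKI8 and RRP40, which had at most 3 reads in both pools. With the interval rule, 5 were lower (all genes, 20.4%) and 0 higher (all genes, 6.52%). EDC3 had the lowest value, -2.97 (-5.32 to -1.29), with 3 reads in total RNA (HS), against 32 in total RNA. NAM7 was at -2.52 (-4.22 to -1.17), MTR4 at -2.42 (-3.34 to -1.61), CDC39 at -1.57 (-2.04 to -1.12) and XRN1 at -1.07 (-1.42 to -0.72). LSM1 had 0 reads in total RNA (HS), where equal density would have given 6.69. Setting the 0 to the same floor puts LSM1 2.23-fold lower, which again is not a lower bound. The exact interval of the ratio, which also counts the error of the 9.1 total RNA reads, reached up to 0.690. PAT1 at -0.19 and CCR4 at -0.15 were slightly lower as measured, and their direction turned to 0.22 and 0.25 when all genes were centred on their median. The 4 ring genes tested ran between -0.07 and 0.86, and each of their intervals included 0.

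**Figure D3:**
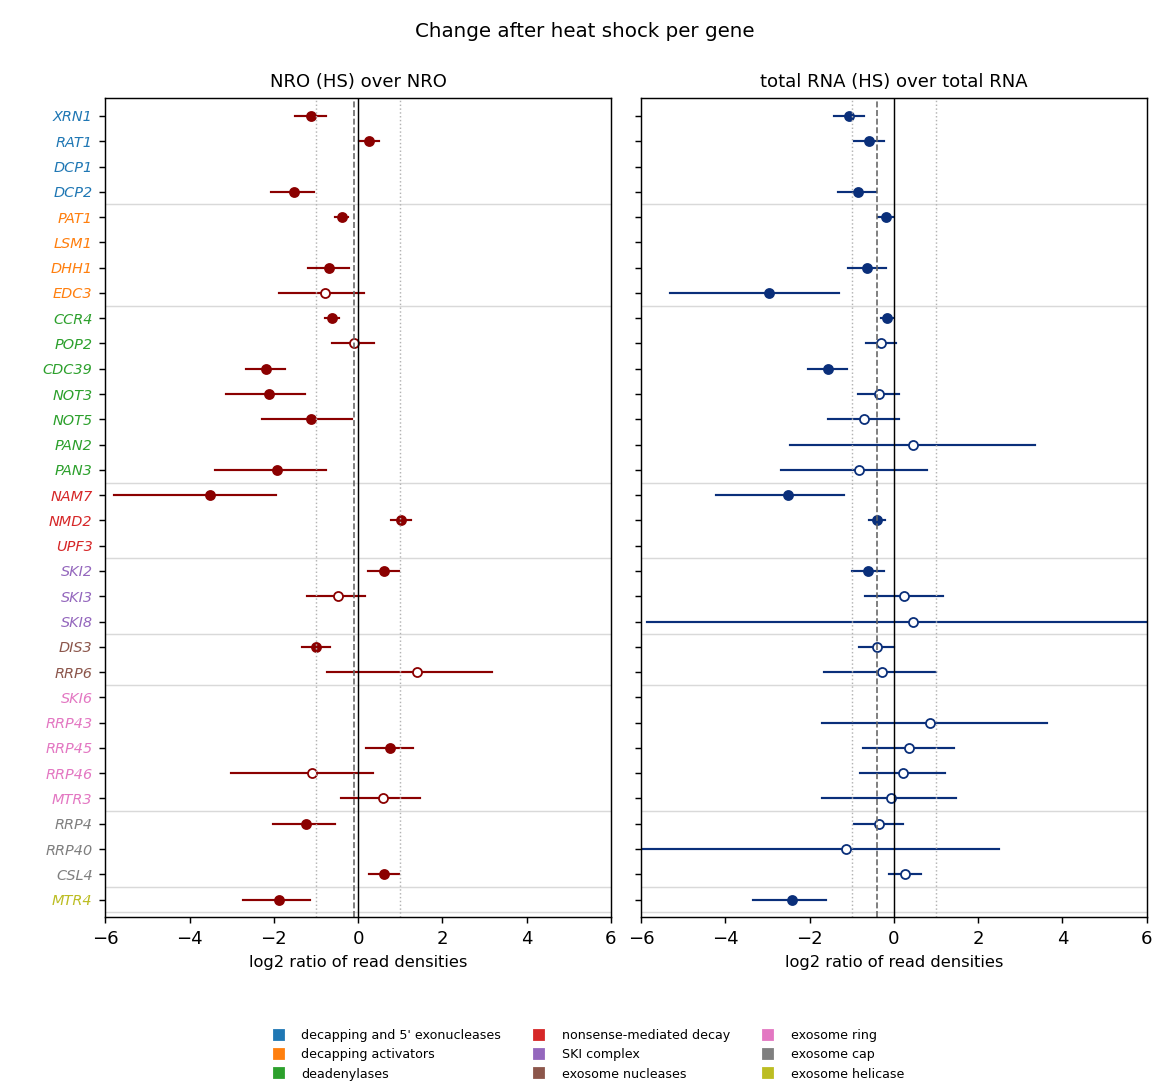
Log2 ratio of read density after heat shock over log growth for each member, in nascent RNA (left) and total RNA (right), with lines for the 95% counting interval, filled circles where it leaves 0 out, and a dashed line at the median of all genes tested (-0.10 and -0.41). The deadenylase genes lie left of 0 in nascent RNA, while NMD2, SKI2, RRP45, CSL4 and RAT1 lie right of it; the total RNA values of PAT1 and CCR4, just left of 0, turn positive when centred on that dashed line.

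The last comparison set the nascent change beside the total RNA change of the same gene. The pools behind the first share no library with those behind the second, and 24 members had reads in all 4. Of these, 15 were below 0 in both (62.5%, against 43.2% of 2781 genes) and 2, RRP45 and CSL4, were above 0 in both. In 5 members (20.8%, against 23.2% of genes) nascent RNA was above 0 and total RNA below it, and in 2, SKI3 and RRP46, the reverse held. At 2-fold or more in both kinds of RNA, 4 members were lower, namely XRN1, CDC39, NAM7 and MTR4 (4 of 24, against 10.2% of all genes). Centring each change on its median over all genes put the total RNA change of XRN1 at -0.66, short of 2-fold, and left the other 3. Their nascent and total RNA values were -1.12 and -1.07 for XRN1, -2.18 and -1.57 for CDC39, -3.51 and -2.52 for NAM7, and -1.88 and -2.42 for MTR4. Before centring, for none of these 4 did the interval of the difference leave 0 out. After centring it did for CDC39 alone among them, at -0.91 (-1.54 to -0.29).

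The interval of the difference of the log2 changes, nascent minus total, left 0 out in 9 of 24 members, against 43.4% of all genes. The difference was 1 or more with a counting interval above 0 in 3 of 24 members, against 18.2% of all genes, and -1 or less with an interval below 0 in 1 member, against 9.49%. NMD2 was the best measured, at 1.44 (1.14 to 1.73), with its nascent RNA at 1.03 and its total RNA at -0.41 (-0.60 to -0.22). SKI2 had 1.23 (0.72 to 1.73), with 0.62 in nascent and -0.61 in total RNA. EDC3 had 2.19 (0.24 to 4.14), where the low total RNA value rested on 3 reads. NOT3 had the opposite pattern, with a difference of -1.75 (-2.74 to -0.77), from -2.11 in nascent and -0.36 (-0.85 to 0.12) in total RNA. When each change was centred on its median over all genes, NMD2, at 1.13, was the 1 member left with the higher nascent change, and EDC3 and SKI2 no longer met the rule. RRP4, at -1.19 (-2.08 to -0.31), then met it beside NOT3 with the lower nascent change, against -0.89 before centring.

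**Figure D4:**
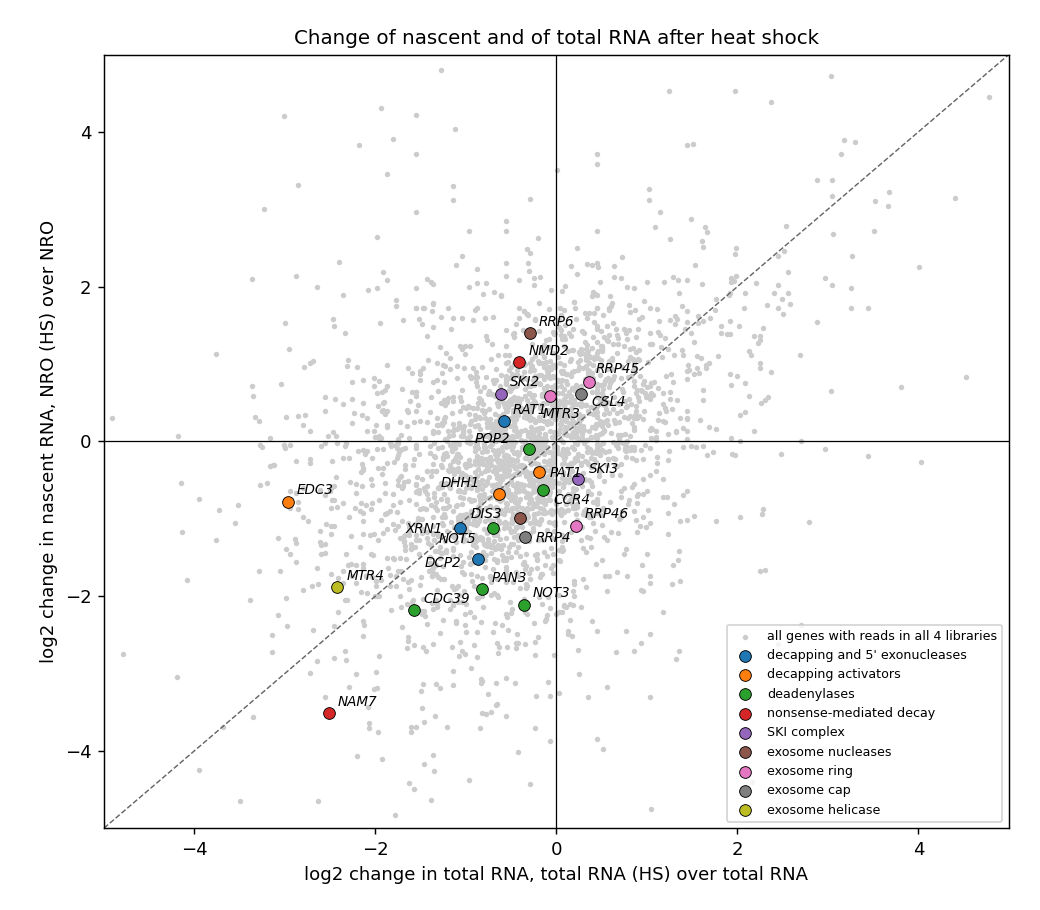
Log2 change of nascent RNA against that of total RNA after heat shock for the 24 members with reads in all 4 pools (coloured by role) and for all such genes (grey; 18 of 2781 lie outside the axes), with a dashed line of equal change. NAM7, CDC39, MTR4 and XRN1 lie at the lower left, NAM7 the furthest of them from that line (-0.99, on 3 reads in NRO (HS)). NMD2 and SKI2 lie above the line with lower total RNA, and NOT3 lies below it.

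A second list of 27 decay cofactors that are not members, of which 21 had a transcript model, was counted by the same rules. For the 15 with a ratio of NRO (HS) over NRO, the median was 0.25 on the log2 scale. At 2-fold with an interval that left 1 out, 0 were lower (all genes, 18.9%) and 2 were higher (all genes, 13.1%). These were MPP6, a cofactor of the nuclear exosome, at 4.22 on 17 reads in NRO (HS), against 6 in NRO, and DCS2, which is related to the scavenger decapping enzyme, at 2.19 on 9 reads, against 13. In total RNA, 1 of 16 was higher (all genes, 6.52%), DCS2 at 2.56, and 3 were lower (all genes, 20.4%). The lower ones were TRF5, a poly(A) polymerase of the TRAMP complex, at -3.28, MPP6 at -1.55 and AIR1, an RNA-binding TRAMP subunit, at -1.50. They had only 4, 7 and 7 reads in total RNA (HS). In log growth the ratio of NRO to total RNA was higher in 2 of 17 (all genes, 18.4%), AIR2 at 2.81 and LRP1 at 2.91, each with 1 total RNA read. The ratio was lower in 3 (all genes, 15.9%), MPP6 at -3.70, CAF40 at -1.57 and PBP1 at -1.28. After heat shock it was higher in 3 of 14 (all genes, 17.7%), TRF5 at 3.19, MPP6 at 2.08 and NRD1 at 1.14, and lower in 0 (all genes, 8.23%). The difference of the changes passed the rule upwards in 3 of 14 of them (all genes, 18.2%), MPP6 at 5.78, TRF5 at 3.55 and CAF40 at 1.23. It passed downwards in 0 (all genes, 9.49%).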

How the data were processed

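Per the methods and file headers, the authors aligned strand-specific reads with Maq to sacCer2 (version not given in the sources used here), kept a mapping quality of at least 30, left out rDNA and merged 3 replicates per group. The deposited signal is the read density, each transcript model's mean coverage beyond its first 200 bp, counted over mappable bases outside introns and scaled to 1e+06 bases acquired. Of 13 libraries in the labels, the 3′ NRO library was not analysed here, and 12 further depth columns of the 4 tables were not used.

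Bases acquired were recovered as the common step of the deposited values, and depth was divided by the read length that gave the most whole numbers (36 bases, and 38 for total RNA) to estimate reads. The study's methods state 36-base reads throughout. At 36 bases only 0.47% of low-depth models of total RNA came out whole, against at least 81.4% of those of each pool at the length used. The total RNA read numbers are therefore estimates on a length that departs from the methods. For both heat shock pools the estimate equals the number of unique reads outside rRNA that the paper's supplement lists. For NRO and, by a wider margin, for total RNA, the supplement lists more reads than estimated here. Ratios took exact binomial intervals. The difference of changes took a normal interval from the summed reciprocals of the 4 read numbers. Genes at 0 got a floor of 3 reads per library. No p-value was computed, since each group had 1 value. Scripts used scipy 1.17.1, pandas 2.3.3, numpy 2.4.6 and, for figures, matplotlib 3.10.9, under Python 3.11.15, and were tested on simulated data. Gene names and promoters came from RefSeq R64, which held all 32 members and 4259 of 4280 models. Every member with a model was to be named, with values in all pools for a fixed list of genes and for those past 2-fold with an interval that left 1 out. The members, lists and tests were chosen with earlier results of these data known. The alternatives were centring, at least 10 reads, a pseudocount of 0.01, a 1.5-fold limit, the interval rule and density over all bases.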

Additional observations from a re-analysis of the deposited data

Results flagged for a closer look

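In 9 of 24 members the counting interval of the difference between the nascent and the total RNA change after heat shock (log2 scale, NRO change minus total RNA change) left 0 out, and in 4 of these the difference was also at least 1 in size. The differences were 2.19 for EDC3, 1.44 for NMD2, 1.23 for SKI2 and -1.75 for NOT3. The interval covers counting error only, and 18.2% of all genes met the rule with both conditions upwards and 9.49% downwards. The lower total RNA of EDC3 rested on 3 reads in total RNA (HS), and NOT3 had 11 reads in NRO (HS). When each change was centred on its median over all genes, the differences became 1.89, 1.13, 0.92 and -2.06 in the order above. NRO (HS) was the smallest pool, and the part of its depth in these values was not tested.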

How the results depend on the processing

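No paired analysis was possible because the authors merged the replicates of each group, and for the same reason no replicate could be left out. Centring on the median of all genes turned the total RNA change of PAT1 to 0.22 and of CCR4 to 0.25 on the log2 scale. It put 1 member, RRP43, at 2-fold or more higher in total RNA, on 4 and 3 reads. It put XRN1 in total RNA at -0.66, while EDC3 (-2.56), NAM7 (-2.11), MTR4 (-2.01) and CDC39 (-1.16) stayed past 2-fold lower there. It left 1 member with the higher nascent change and 2 with the higher total RNA change. With a pseudocount of 0.01 the ratio of NRO to total RNA was higher in 3 members and lower in 1, that of NRO (HS) to total RNA (HS) was lower in 1, and NRO (HS) was higher than NRO in 0. Requiring 10 reads in both pools gave 2 higher and 1 lower of 17 members for NRO (HS) to total RNA (HS). It gave 1 higher and 6 lower of 19 for NRO (HS) to NRO, and 3 lower of 19 for total RNA (HS) to total RNA. A 1.5-fold limit gave 5 lower for NRO to total RNA, 10 higher for NRO (HS) to total RNA (HS), 6 higher for NRO (HS) to NRO, 1 higher and 11 lower for total RNA (HS) to total RNA, and 3 members with the higher total RNA change. The interval rule left 1 member lower for NRO (HS) to total RNA (HS) and 1 higher for NRO (HS) to NRO. Each of these filters tests fewer genes or counts other folds by construction. The shares of all genes under centring, the pseudocount, 10 reads and the 1.5-fold limit are not given here. Whether the members still differed from all genes under those settings was therefore not tested. The other counts stayed within 1.5 times. Density over all bases equals the main density by construction, since all 32 members are fully mappable, so it says nothing about stability. Depth limits both heat shock pools, where 19 of 32 members had 10 reads or more in each.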
